A study of Rattus norvegicus with 6 samples.

Results

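The expression of 9 channel genes was examined in primary rat chondrocytes with and without retinoic acid. They were the mechanosensitive cation channels Trpv4, Piezo1 and Piezo2, the connexins Gja1 and Gjc1, the pannexins Panx1 and Panx3, and the polycystins Pkd1 and Pkd2. They were chosen by gene symbol, and each symbol matched 1 identifier among the 18923 genes of the files. All 9 passed the filter on low counts, as did 13438 genes in all. Chondrocytes were isolated by collagenase digestion of cartilage from newborn (24 h old) female Sprague-Dawley rats, labelled wild type, and used at passage 1 or 2. The 3 CON samples were kept for 24 h in high-glucose DMEM with serum, and the 3 RA samples in the same medium with 1 µM all-trans retinoic acid (RA), the active acid form of vitamin A and the ligand of the retinoic acid receptors. No vehicle is named for the CON samples. Cells cultured outside their matrix carry no joint load, which limits them as a model of how loaded cartilage uses these channels.

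Chondrocytes sense the compression and swelling of cartilage partly through channels in the plasma membrane. Trpv4 is a calcium channel opened by osmotic and mechanical stimuli and is known for promoting matrix synthesis, and Piezo1 and Piezo2 are large channels opened by membrane tension and are known for calcium entry under high strain. Gja1 (connexin 43) and Gjc1 (connexin 45) form hemichannels and gap junctions that pass ions and small molecules. Pannexins form membrane channels that release ATP, and Panx3 is known from prehypertrophic and hypertrophic chondrocytes and osteoblasts. Pkd1 and Pkd2 encode polycystin 1 and polycystin 2, a receptor-like protein and a cation channel that sit together in the primary cilium.

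Total counts ran from 29370025 to 38007486 per sample. CON 1 stood apart from the other CON samples. A chi-square statistic per degree of freedom over all genes was 37.4 and 59.7 for CON 1 against CON 2 and CON 3, 7.85 between CON 2 and CON 3, and between 6.26 and 7.90 among the RA samples. On the log2(CPM + 0.5) scale, CON 1 lay below the mean of CON 2 and CON 3 in Pkd1 (-0.65), Piezo1 (-0.54) and Trpv4 (-0.41), at the 3.63, 6.11 and 11.3 percentiles of all genes tested. Panx3 differed by -0.21, at the 26.6 percentile. In Gja1, Gjc1, Panx1 and Pkd2 the same difference was between -0.00064 and 0.049, near the median of all genes (-0.0024). Piezo2, about as long as Piezo1 at 8163 against 8203 bases, differed by 0.11 in the other direction. The median difference in 6 classes of gene length was between -0.013 and 0.020.

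Of the 9 genes, Trpv4 and Panx3 were called lower in RA and none was called higher, in edgeR as in DESeq2. At an unadjusted p below 0.05, 5 of the 9 genes passed in edgeR, against 24.0% of all genes tested. A gene was called when its Benjamini-Hochberg adjusted p, over all 13438 genes in edgeR's quasi-likelihood test, was below 0.05 and its log2 fold change lay beyond 0.58 in either direction. Of all genes tested, 4.96% were called, 2.67% higher and 2.29% lower in RA. Piezo2 and Pkd2 passed the adjusted p and stayed short of the fold-change threshold, both with higher values in RA. By the adjusted p alone, 4 of the 9 genes passed, against 9.82% of all genes, with 2 higher and 2 lower in RA, against 5.31% and 4.5% of all genes. In 7 of the 9 genes the CON and RA samples did not overlap in CPM, the count scaled to the library size, which was also so for 31.9% of all genes. The median log2 fold change was 0.12 over the 9 genes and -0.0057 over all genes tested. In bulk RNA, fewer cells of a type and less RNA per cell cannot be told apart.

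The promoter of Trpv4, the more abundant of the called genes, is shown for context, together with that of Panx1, the pannexin beside Panx3. Both are the 250 bases before the transcription start in RefSeq on the rat assembly GRCr8, in a promoter table that matched 6 of the 9 genes. The promoters of Panx3, Piezo1 and Gjc1 were not analysed here. Trpv4 lies at chr12:47598938-47599187 on the plus strand and Panx1 at chr8:20171201-20171450 on the minus strand. Capitals mark the letters of a half-site for retinoic acid receptors, of which the Trpv4 window has none.
Trpv4: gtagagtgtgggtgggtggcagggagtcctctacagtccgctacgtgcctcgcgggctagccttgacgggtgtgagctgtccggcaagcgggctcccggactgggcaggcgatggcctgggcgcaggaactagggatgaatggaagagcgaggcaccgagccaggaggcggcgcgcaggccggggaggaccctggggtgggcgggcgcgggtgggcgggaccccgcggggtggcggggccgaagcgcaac
Panx1: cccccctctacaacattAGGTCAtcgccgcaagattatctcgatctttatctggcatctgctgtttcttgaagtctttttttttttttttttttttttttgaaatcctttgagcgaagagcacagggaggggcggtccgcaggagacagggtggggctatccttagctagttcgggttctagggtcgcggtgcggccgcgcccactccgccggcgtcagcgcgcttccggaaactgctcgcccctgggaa
The half-site AGGTCA was searched on both strands. So was the variant AGTTCA. A further variant was GGGTCA. Direct repeats of the 3 half-sites with 1, 2 or 5 bases between were searched as well. Panx1 held 1 half-site, starting 233 bases before the transcription start, and the windows of Trpv4, Piezo2, Gja1, Pkd1 and Pkd2 held none. None of the 6 windows held a direct repeat. A half-site was present in 33.0% and a direct repeat in 0.269% of 33469 windows of this length. The Trpv4 window was 72.8% G or C, against a median of 51.2% over all windows. These matches are a description of letters, and no binding was measured.

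The levels of the 9 genes spanned from under 1 FPKM for Panx3 to 471 FPKM for Gja1, a unit that scales the count by gene length and by the sample's total count. In CON the order of mean FPKM was Gja1 (419), Piezo1 (48.8), Trpv4 (33.8), Pkd2 (28.2), Pkd1 (19.1), Gjc1 (9.55), Piezo2 (3.74), Panx1 (3.01) and Panx3 (0.450). The 3 values of neighbours overlapped in CON between Piezo1 and Trpv4 and between Trpv4 and Pkd2. In RA, Pkd2 (35.8) stood above Trpv4 (22.0) without overlap, and Trpv4 overlapped only Pkd1 (20.7). The other 7 genes kept their places in the order.

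**Figure D1:**
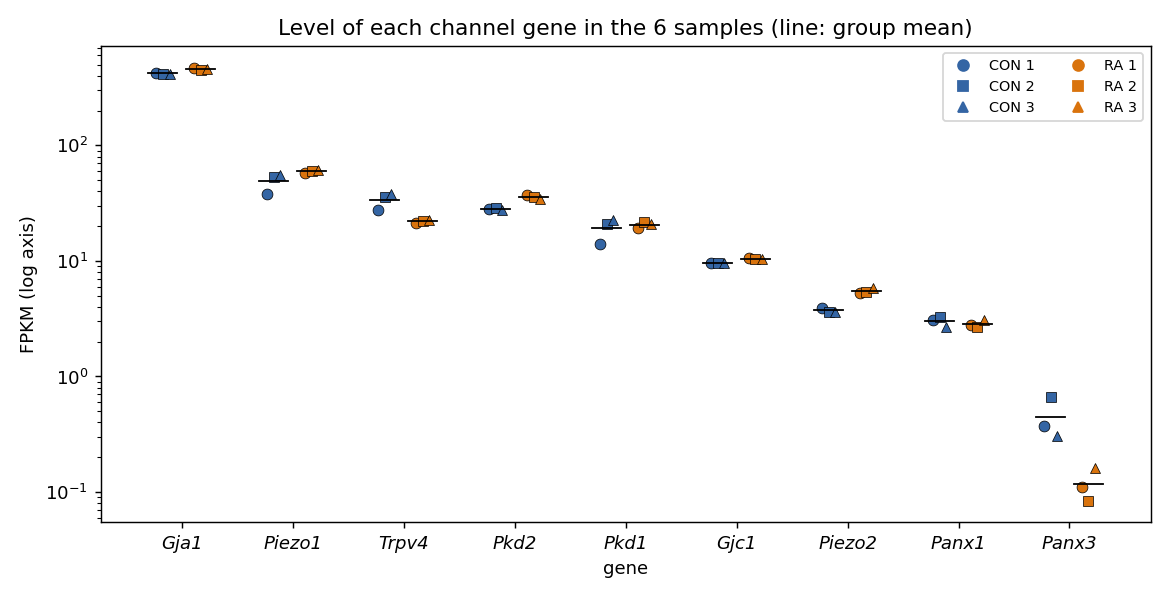
FPKM (log axis) of the 9 channel genes in the 3 CON (blue) and 3 RA (orange) samples, ordered by the mean of CON, with a line at each group mean. Gja1 was highest in every sample, and Panx3 was below 1 FPKM in all 6.

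Among the mechanosensitive cation channels, Trpv4 (ENSRNOG00000001195) was lower in every RA sample than in any CON sample. Its level was 27.8, 35.5 and 38.1 FPKM in CON 1, 2 and 3 and 21.2, 22.2 and 22.8 FPKM in RA 1, 2 and 3. The RA samples lay close together, and CON 1 was the lowest of the CON samples and the nearest to RA. The mean was 33.8 ± 5.38 FPKM in CON and 22.0 ± 0.802 FPKM in RA (SD of 3 samples). This was a log2 fold change of -0.63 (standard error 0.116, 95% interval -0.90 to -0.37, adjusted p = 0.0107, edgeR), or 1.55-fold lower. The call rested on single samples. Without CON 1 the log2 fold change was -0.76 and the call held, as it did without RA 3. It did not hold without CON 2 (-0.60), CON 3 (-0.52), RA 1 (-0.60) or RA 2 (-0.64), with edgeR adjusted p of 0.054, 0.0199, 0.061 and 0.053 (the alternatives spanned 3.60e-06 to 0.061). Without CON 3 the adjusted p passed and the fold change fell short of the threshold.

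Piezo2 (ENSRNOG00000038784) was measured at 3.95, 3.63 and 3.64 FPKM in CON and 5.24, 5.42 and 5.84 FPKM in RA. The groups stood apart by more than the spread within either of them. On the log2 scale the difference was 0.54 (standard error 0.0727, 95% interval 0.38 to 0.71, adjusted p = 0.00240, edgeR), below the threshold of 0.58. Omitting any 1 of the 6 samples kept the adjusted p, and the fold change crossed the threshold in 2 of those fits, at 0.58 without CON 1 and 0.59 without RA 1.

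Piezo1 (ENSRNOG00000056786), the most abundant of these channels, was not called. It was measured at 37.7, 53.5 and 55.3 FPKM in CON and 57.3, 60.0 and 61.3 FPKM in RA. The groups did not overlap, but CON 1 lay far below the other CON samples, and CON 2 and CON 3 were close to the RA values. This gave a log2 fold change of 0.27 (standard error 0.134, 95% interval -0.034 to 0.58, adjusted p = 0.261, edgeR), and it was 0.11 without CON 1. Piezo1 and Piezo2 share the name and the channel architecture, and Piezo1 was the more abundant in every sample, with a Piezo2 level between 0.0657 and 0.105 of that of Piezo1.

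Among the gap junction genes, Gja1 (ENSRNOG00000000805) supplied nearly all connexin mRNA. It made up between 95.6% and 96.2% of the summed FPKM of the 14 connexin genes in the files, and Gjc1 between 2.16% and 2.20%. Gja1 was measured at 421, 418 and 419 FPKM in CON and 471, 453 and 463 FPKM in RA. The groups did not overlap, and the difference was small. RA differed from CON by a log2 fold change of 0.13 (standard error 0.0449, 95% interval 0.026 to 0.23, adjusted p = 0.125, edgeR), so that the interval lay wholly inside the threshold of 0.58. Without CON 1 the adjusted p from edgeR was 0.0234 (the alternatives spanned 0.0234 to 0.380) at a log2 fold change of 0.13.

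Gjc1 (ENSRNOG00000048838) was measured at 9.63, 9.51 and 9.51 FPKM in CON and 10.6, 10.4 and 10.5 FPKM in RA. Its samples lay close together in each group, without overlap between groups. On the log2 scale the difference was 0.12 (standard error 0.0703, 95% interval -0.040 to 0.28, adjusted p = 0.339, edgeR). The ratio of Gjc1 to Gja1 lay between 0.0225 and 0.0229 in all 6 samples.

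Among the pannexins, Panx3 (ENSRNOG00000031675) was the rarest of the 9 genes and had the largest difference among them. The counts were 28, 49 and 28 reads in CON 1, 2 and 3 and 8, 6 and 12 reads in RA 1, 2 and 3, or 0.376, 0.671 and 0.304 FPKM against 0.111, 0.0843 and 0.160 FPKM. All RA samples were below all CON samples, and CON 2 was the highest. The mean was 0.450 ± 0.194 FPKM in CON and 0.119 ± 0.0384 FPKM in RA (SD of 3 samples). This gave a log2 fold change of -1.91 (standard error 0.420, 95% interval -2.87 to -0.94, adjusted p = 0.0243, edgeR), or 3.75-fold lower. At these counts the call held without CON 1 (-2.01) or CON 3 and was lost without CON 2 (-1.52), RA 1 (-1.86), RA 2 (-1.72) or RA 3 (-2.19), with edgeR adjusted p of 0.0874, 0.104, 0.111 and 0.0595 (the alternatives spanned 0.00400 to 0.111). In limma the log2 fold change was -1.29 on log2(FPKM + 0.1), where the call held. It was -0.37 on log2(FPKM + 1), where the call was lost (adjusted p = 0.0632, limma). A filter on a mean count of at least 50 removed the gene.

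Panx1 (ENSRNOG00000010060), the widely expressed pannexin, was not called. It was measured at 3.09, 3.25 and 2.68 FPKM in CON and 2.78, 2.70 and 3.08 FPKM in RA, and the groups overlapped. RA differed from CON by a log2 fold change of -0.086 (standard error 0.120, 95% interval -0.36 to 0.19, adjusted p = 0.703, edgeR). On omitting 1 sample at a time it was -0.032 without CON 2, -0.051 without RA 2, -0.15 without CON 3 and -0.15 without RA 3, and Panx1 was called in none of these fits. The ratio of Panx3 to Panx1 was 0.122, 0.206 and 0.113 in CON and 0.0401, 0.0312 and 0.0519 in RA.

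Among the polycystins, Pkd2 (ENSRNOG00000002146) was measured at 28.4, 28.5 and 27.8 FPKM in CON and 37.5, 35.5 and 34.3 FPKM in RA. The CON samples were nearly equal, and all RA samples lay above them. On the log2 scale the difference was 0.33 (standard error 0.0567, 95% interval 0.20 to 0.46, adjusted p = 0.00814, edgeR), short of the threshold of 0.58. The adjusted p held on omitting 4 of the 6 samples, 1 at a time. It was lost without RA 1 (0.30) and RA 2 (0.33).

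Pkd1 (ENSRNOG00000010771) was measured at 13.95, 20.9 and 22.6 FPKM in CON and 19.3, 21.7 and 21.0 FPKM in RA. The groups overlapped, and CON 1 was the lowest sample. This gave a log2 fold change of 0.096 (standard error 0.162, 95% interval -0.28 to 0.47, adjusted p = 0.762, edgeR), and it was -0.091 without CON 1, so no direction is given for Pkd1.

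**Figure D2:**
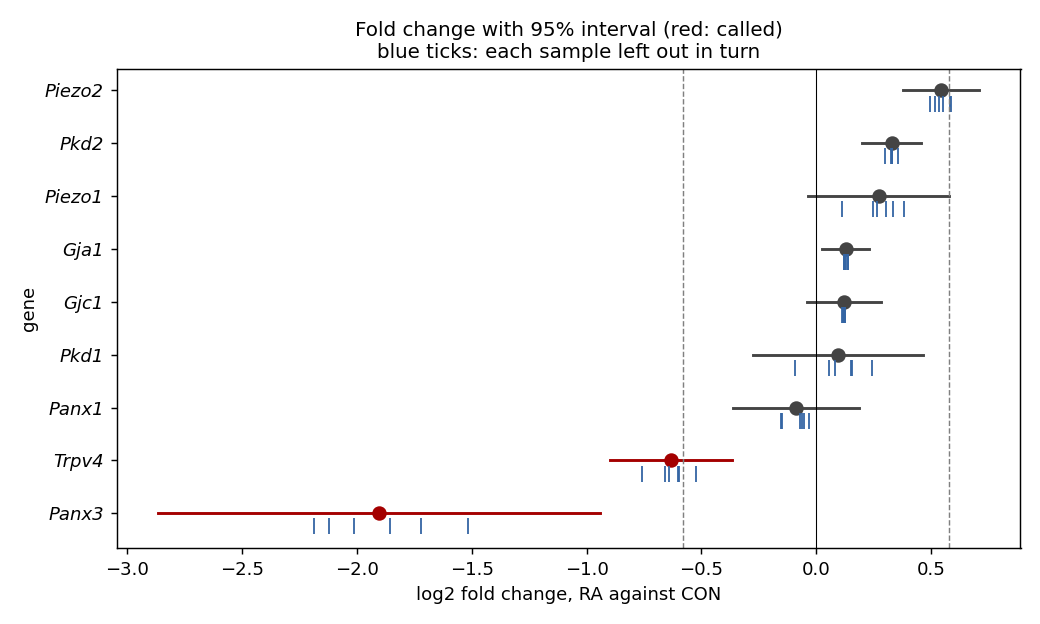
Log2 fold change of RA against CON for the 9 genes, with the 95% interval from edgeR (lines) and the values with each sample left out in turn (blue ticks). The called genes Trpv4 (-0.63) and Panx3 (-1.91) are in red, and the dashed lines mark 0.58 in both directions.

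**Figure D3:**
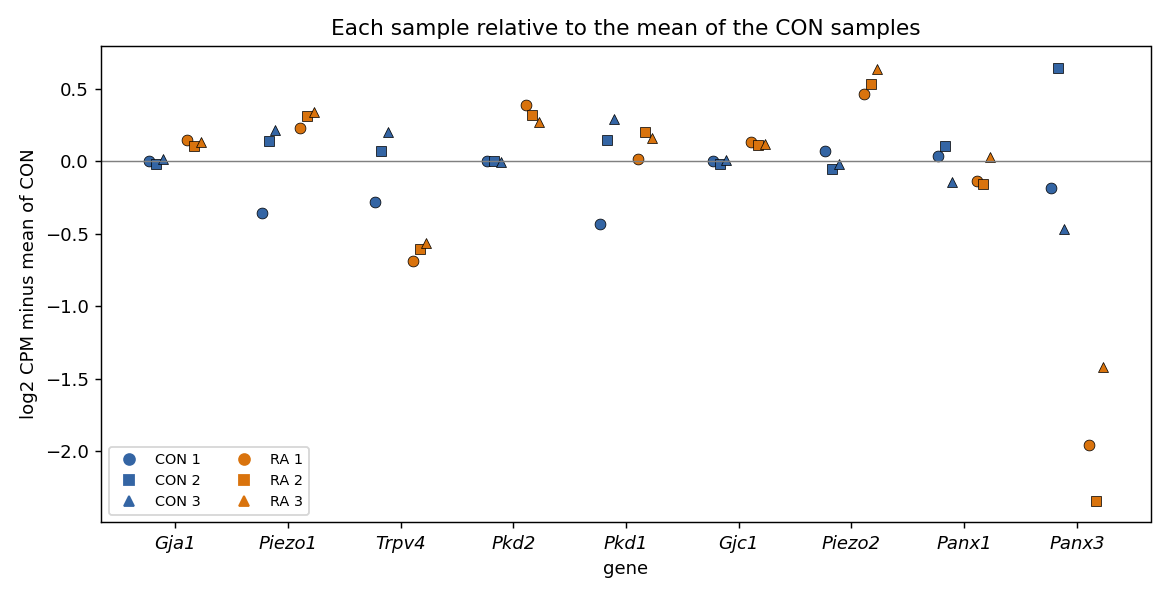
Log2 CPM of each sample minus the mean of the CON samples, for the 9 genes, with CON in blue and RA in orange. CON 1 (blue circle) lies below the other CON samples in Piezo1, Trpv4 and Pkd1.

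Ratios between 2 genes within a sample do not depend on how samples are scaled to each other. The ratio of Trpv4 to Piezo1 was 0.737, 0.663 and 0.690 in CON and 0.369, 0.369 and 0.371 in RA. In this ratio CON 1 was the highest and not the lowest of the CON samples, and the groups did not overlap. The mean log2 ratio was -0.52 ± 0.0765 in CON and -1.44 ± 0.00487 in RA (SD of 3 samples), a difference of -0.91 (two-sided exact permutation p = 0.1, adjusted over 6 ratios 0.2). The ratio of Trpv4 to Pkd2 was 0.979, 1.25 and 1.37 in CON and 0.565, 0.624 and 0.663 in RA, a log2 difference of -0.95 (exact permutation p = 0.1, adjusted 0.2). The Panx3 to Panx1 ratio given above had a log2 difference of -1.82 (exact permutation p = 0.1, adjusted 0.2). A p of 0.1 is the smallest that 3 against 3 samples allow, so none of these tests could reach 0.05. Trpv4 was lower, and Piezo1 and Pkd2 were higher, in every RA sample than in any CON sample. Separate groups in the Trpv4 ratios, and their permutation p of 0.1, therefore follow from the values above and are no further result. Piezo2 to Piezo1, Pkd2 to Pkd1 and Gjc1 to Gja1 differed by 0.25, 0.20 and -0.0076 (exact permutation p of 0.4, 0.5 and 0.4, adjusted 0.48, 0.5 and 0.48), and in each of these pairs the groups overlapped. In Piezo2 to Piezo1 and in Pkd2 to Pkd1 the overlap came from CON 1. The Pkd2 to Pkd1 ratio was 2.03, 1.36 and 1.23 in CON and 1.95, 1.63 and 1.63 in RA. On omitting 1 sample at a time, the log2 difference of Piezo2 to Piezo1 ran from 0.13 without CON 3 and 0.15 without CON 2 to 0.47 without CON 1. That of Pkd2 to Pkd1 ran from 0.057 without CON 3, 0.12 without RA 1 and 0.13 without CON 2 to 0.42 without CON 1. The groups were separate without CON 1 and overlapped in the other fits. Since CON 1 was the source of the overlap, the separation without it follows from the omission and is no result. The log2 difference of Gjc1 to Gja1 ran from -0.0033 without RA 1 to -0.015 without RA 2. Its groups were separate only without RA 2, which again follows from the omission. The ratios were not among the planned tests, and those without single samples were added after the data were seen.

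**Figure D4:**
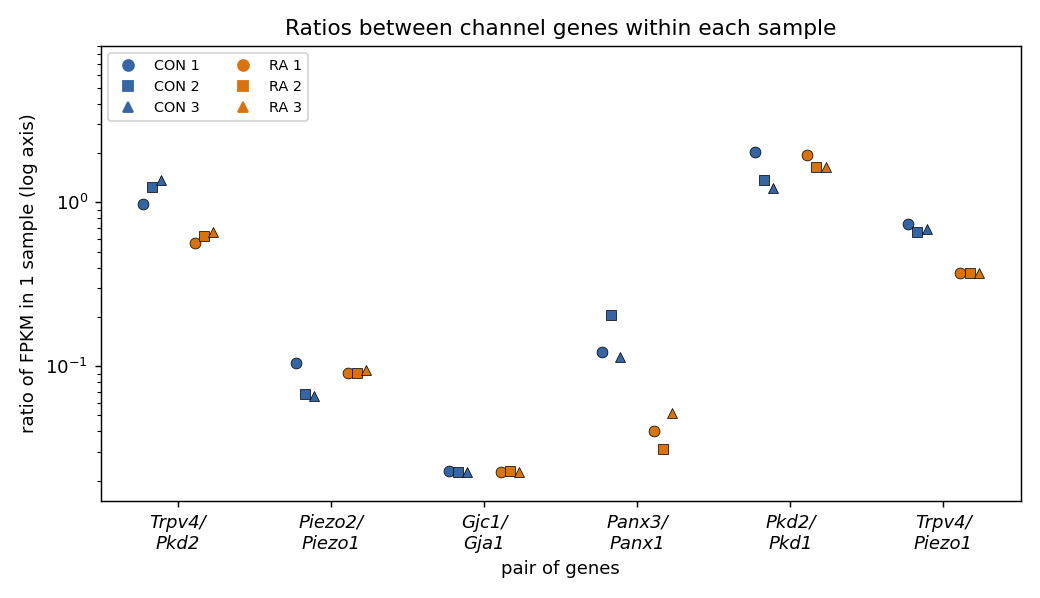
Ratio of FPKM between 2 genes within each sample (log axis), for 6 pairs of channel genes, with CON in blue and RA in orange. The 3 RA samples lie below the 3 CON samples in Trpv4 to Pkd2, Trpv4 to Piezo1 and Panx3 to Panx1, and the groups overlap in the other 3 pairs, through CON 1 in Piezo2 to Piezo1 and Pkd2 to Pkd1.

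The genes around these channels were read from 9 lists, which held 94 tested genes. Of these, 4 were called, all higher in RA, or 4.26% against 4.96% of all genes, a share near the background. Among other mechanosensitive channels, 4 of 9 tested genes had an unadjusted p below 0.05 in edgeR (24.0% of all genes), and 1 was called. This was Kcnk2, which encodes the stretch-activated potassium channel TREK-1, at 5.89, 5.13 and 4.85 FPKM in CON and 8.45, 8.26 and 8.60 FPKM in RA (log2 fold change 0.66, standard error 0.0855, adjusted p = 0.00204, edgeR). It stayed called with each sample left out in turn.

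None of the 4 other connexins, the 8 other pannexin and volume-regulated channel genes or the 3 genes tested from the polycystin list was called, and none passed the adjusted p alone. In edgeR 2, 0 and 0 of them had an unadjusted p below 0.05, which 24.0% of all genes tested had. Their median log2 fold changes were 0.15, 0.13 and -0.62, the last over Pkd1l1 and Pkd1l3, both below 1 FPKM, and Pkdcc, which encodes a secreted kinase and not a polycystin. Among 11 tested partners and scaffolds of the channels none was called, and 5 had an unadjusted p below 0.05 in edgeR (24.0% of all genes). The one that passed the adjusted p alone, Tjp1, encodes the junction scaffold ZO-1, which binds connexin 43, and differed by 0.31 on the log2 scale (adjusted p = 0.0236 in edgeR). On omitting 1 sample at a time, it kept the adjusted p in 1 of 6 fits. Of 16 primary cilium genes none was called, 2 had an unadjusted p below 0.05 in edgeR (24.0% of all genes), and 3 had a log2 fold change above 0 (48.9% of all genes).

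Of 14 tested genes of extracellular ATP and its receptors, the pathway that pannexin and connexin hemichannels feed, 3 were called and all were higher in RA, where 2.67% of all genes were called higher, and 9 had an unadjusted p below 0.05 in edgeR (24.0% of all genes). Ankh, which encodes a transporter known for exporting ATP and citrate and raising extracellular pyrophosphate, was measured at 33.8, 33.3 and 33.1 FPKM in CON and 71.3, 69.7 and 74.0 FPKM in RA (log2 fold change 1.09, standard error 0.0564, adjusted p = 2.38e-05, edgeR). Entpd3, an ectonucleotidase, was measured at 2.26, 2.58 and 2.51 FPKM in CON and 6.19, 7.03 and 7.06 FPKM in RA (log2 fold change 1.45, standard error 0.100, adjusted p = 9.21e-05, edgeR). In both genes the RA samples lay far above the CON samples, and the call held with each sample left out in turn.

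Adora2a, an adenosine receptor gene, was low in both groups, at 0.201 ± 0.0471 FPKM in CON and 0.503 ± 0.109 FPKM in RA (SD of 3 samples). It was higher in RA by 1.29 on the log2 scale (adjusted p = 0.0346 in edgeR). On omitting 1 sample at a time, the call held in 1 of 6 fits, the one without CON 1. It was lost without CON 2 (1.11), CON 3 (1.43), RA 1 (1.20), RA 2 (1.20) or RA 3 (1.46), in limma on log2(FPKM + 1) (0.32, below the fold-change threshold), and with the replicate number as a block (1.28, adjusted p = 0.0545 in edgeR, with 0.0195 to 0.140 over the alternatives). A filter on a mean count of at least 50 removed the gene. The adjusted p alone also passed for Alpl, the phosphatase that degrades pyrophosphate, at -0.42 on the log2 scale (adjusted p = 0.0219 in edgeR), and it held in 2 of 6 fits on omitting 1 sample at a time.

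Of 16 calcium store channels and pumps and 14 calcium and YAP responsive genes none was called, and 4 and 3 had an unadjusted p below 0.05 in edgeR, close to the 24.0% of all genes. DESeq2 called 4 genes over all lists, as edgeR did. By the adjusted p alone the store channel Itpr1 (0.32), the plasma membrane pump Atp2b4 (-0.28), the cilium gene Ift20 (-0.39) and the YAP target Ccn2 (0.55) passed, with adjusted p of 0.0131, 0.0352, 0.0228 and 2.53e-04 from edgeR. On omitting 1 sample at a time, Ccn2 kept the adjusted p in 6 of 6 fits and the others in 1 or 2. These genes, Tjp1 and Alpl were named after their values were seen.

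**Figure D5:**
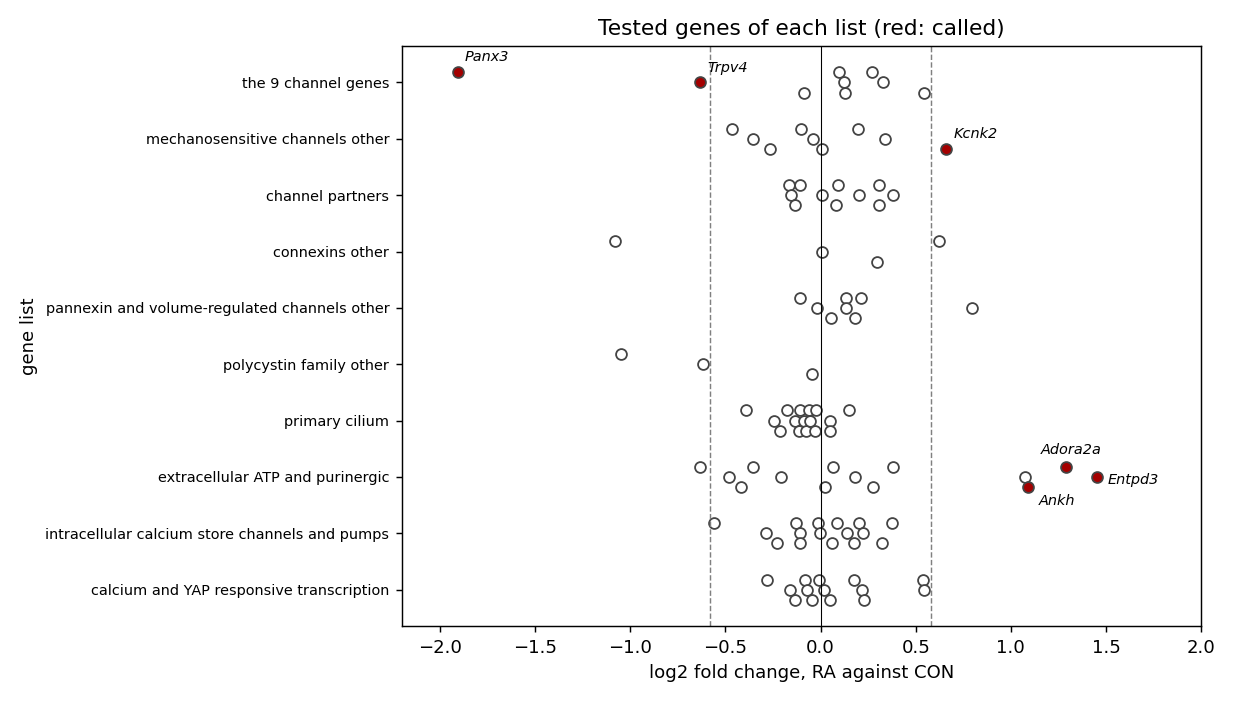
Log2 fold change of RA against CON for the tested genes of each list (1 point per gene), with called genes in red and named, and dashed lines at 0.58 in both directions. Outside the 9 channel genes, Kcnk2, Ankh, Entpd3 and Adora2a were called, all to the right of 0.

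By a likeness in pattern, measured as the root mean square difference in log2 CPM centred on the CON mean over the 6 samples, the genes nearest to Panx3 were Cldn23 (0.244), Cyp4b1 (0.305) and Smim5 (0.395). Cldn23 is a claudin and Cyp4b1 a cytochrome P450. Their levels in CON were 0.4998, 0.556 and 1.71 FPKM, and their log2 fold changes were -1.74, -1.76 and -1.95. These genes were chosen for the likeness over all 6 samples, so a lower level in RA is part of the choice and is no result.

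The cells expressed chondrocyte markers, and most of these fell along with Trpv4 and Panx3. Of 10 markers, Col2a1 and Acan among them, 9 were called, all lower in RA, where 2.29% of all genes were called lower, and their summed level was 30809 to 41283 CPM in CON and 18949 to 20678 CPM in RA. Of 8 markers of hypertrophic chondrocytes, the cells in which Panx3 is known, 4 were called and all of these were higher in RA (Col10a1, Mmp13, Spp1 and Ibsp), against 2.67% of all genes. Of the others, Alpl passed the adjusted p in the opposite direction (-0.42), and Runx2 (0.22) and Pth1r (0.084) did not pass it. The summed level of the list, of which Spp1 was the most abundant gene at 861 FPKM in CON and 3208 FPKM in RA, was 1443 to 1583 CPM in CON and 5290 to 5698 CPM in RA. Ihh, a marker of prehypertrophic cells, had 0.273 FPKM in CON and 0.0878 FPKM in RA (-1.63 on the log2 scale, adjusted p = 0.0669 in edgeR). The part of these marker changes in the values of Panx3 and Trpv4 was not tested.

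Markers of osteoblasts and of fibroblasts were led by Col1a1, at 2976 FPKM in CON and 3478 FPKM in RA, and none of either list was called, against 4.96% of all genes. By the adjusted p alone, the fibroblast markers Pdgfra (0.44, adjusted p = 0.00155 in edgeR) and Dcn (-0.41, adjusted p = 0.0378 in edgeR) passed, in opposite directions. Of the osteoblast markers Bglap and Dmp1 were below the filter on low counts. The 5 endothelial markers summed to at most 1.14 CPM in any sample, and Emcn had no count in any. The 7 macrophage markers summed to 22.0 to 25.5 CPM in CON and 27.0 to 29.5 CPM in RA. Of the 3 tested none was called, against 4.96% of all genes. Cd14 was the most abundant, at 12.9 FPKM in CON and 15.3 FPKM in RA without overlap, and Cd68 had 1.05 FPKM in CON and 1.28 FPKM in RA, also without overlap. The group means of Ptprc and Adgre1 were at most 0.0152 and 0.00347 FPKM. The part of these values in the results was not tested. Muscle markers summed to 10.2 to 12.8 CPM in CON and 14.9 to 16.7 CPM in RA. Of the 2 tested, 1 was called, higher in RA, where 2.67% of all genes were called higher. This was Myod1, at a mean of 0.0932 FPKM in CON and 0.366 FPKM in RA. Neuron and Schwann cell markers summed to 4.92 to 7.996 CPM in CON and 3.50 to 4.49 CPM in RA. Of the 4 tested none was called, against 4.96% of all genes. In both lists 2 tested genes had an unadjusted p below 0.05 in edgeR (24.0% of all genes).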

How the data were processed

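Poly(A) RNA of 6 samples (3 CON, 3 RA) was prepared with a NEBNext Ultra RNA kit and sequenced on an Illumina HiSeq instrument. For each gene and sample the authors deposited whole-number counts without normalization, and FPKM. Dividing the counts by FPKM gave the same gene length in every sample, so the FPKM values are scaled by length and total count alone. The submitters' processing notes name HISAT2, HTSeq 0.13.5 and the build Rnor 6.0. The annotation and the strand setting are not given in the sources used here, so reads of overlapping genes may be shared. Total counts ran from 30170909 to 38007486 in CON and from 29370025 to 30952882 in RA. The limit that a count of 0 leaves, 3 counts per library, was 0.0803 to 0.102 CPM and covers counting error only.

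Counts were tested with edgeR 4.0.16 in R 4.3.3 (glmQLFit and glmQLFTest, TMM normalization, filterByExpr with a minimum count of 10, no covariates, all 6 samples). CPM values use TMM-scaled library sizes. Standard errors and intervals were derived from the F statistic and its degrees of freedom, and SDs are over 3 samples. The study describes 3 independent samples per group without saying whether these were separate animals, so the p-values measure the spread between these samples. Genes sharing a symbol (158 identifiers) were represented by the one with the highest mean count. Likeness to Panx3, the called gene with the largest difference, was taken over tested genes with a count in every sample. Named beside the 9 genes were the called genes of each list around the channels, at most 3 in each direction. Cell type markers and genes that were not called were named outside this rule. The 9 genes, the lists and the tests were chosen with earlier results of these data known. On simulated counts of the RA against CON comparison (13251 genes), edgeR recovered 79% of genes changed 2-fold and 97% of genes changed 4-fold. Of 179 genes it called there, 3 were unchanged. These shares are over genes of all levels and do not describe a 1.55-fold difference, as in Trpv4, or a gene as rare as Panx3. The alternatives were RLE size factors, DESeq2 1.42.0, no filter, a mean count of at least 50, limma 3.58.1 on log2(FPKM + 0.1) and log2(FPKM + 1), the adjusted p alone, the replicate number as a block, and each sample left out in turn. The FPKM ratios were not among the planned tests, and leaving samples out of them was added after the data were seen.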

Additional observations from a re-analysis of the deposited data

How the results depend on the processing

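Among the 9 channel genes, 2 were called, and 1 with a mean count of at least 50 (which removed Panx3), 1 in limma on log2(FPKM + 1) and 4 by the adjusted p alone. On omitting 1 sample at a time it was 0 to 3. It was 0 without CON 2 or RA 2, and 1 without CON 3 (Panx3), RA 1 (Piezo2, higher in RA) or RA 3 (Trpv4). Over all genes 667 were called, 434 in limma on log2(FPKM + 1), 1319 by the adjusted p alone and 480 to 755 with a sample left out. In limma on log2(FPKM + 1), 59.0% of the calls were higher in RA. Over the lists 4 genes were called, 10 by the adjusted p alone and 3 to 5 with a sample left out. RLE size factors, DESeq2, no filter and limma on log2(FPKM + 0.1) each called 2 of the 9 genes, Trpv4 and Panx3. The one change of direction among the 9 genes was Pkd1 without CON 1 (-0.091, with up to 0.24 on omitting another sample). In limma on log2(FPKM + 1), Panx3 was at -0.37 (adjusted p = 0.0632), since a pseudocount of 1 FPKM exceeds its level. The other causes were not tested. The 6 ratios kept their direction on omitting any 1 sample, an alternative added after the data were seen. Gjc1 to Gja1 lay between -0.015 and -0.0033 in these fits, and Pkd2 to Pkd1 was as low as 0.057 without CON 3. At values this near 0 a kept sign carries no weight.

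With the replicate number as a block, 2 of the 9 genes, 684 of all genes and 3 list genes were called. The deviations of samples of the same number from their group means correlated at 0.16, -0.014 and 0.047, so the numbers were not taken to pair the samples, and not every sample correlated best with its own number. Depth limits Panx3, at 6 to 49 reads per sample, the most.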
